A study of Mus musculus with 9 samples.

Results

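Mbnl2 is a muscleblind-like protein that binds RNA, and its binding sites in mouse hippocampus were mapped by crosslinking and immunoprecipitation with sequencing (CLIP), which recovers short RNA tags attached to the protein. The regions described here are the CLIP peaks that the authors annotated as lying in introns. They were taken from the authors' list of significant peaks, a peak being a stretch where tags pile up, by the single annotation "intron". This gave 3538 of 10407 peaks, or 34.0%, in 1679 genes. The other large classes, used for comparison, were 5742 peaks in 3′ untranslated regions (3′UTR) and 677 in coding sequence.

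Muscleblind-like proteins bind pre-mRNA around alternative exons and alter their splicing, and they also bind mature transcripts, mainly in 3′UTRs, where they affect localization and stability. A tag in an intron comes from RNA that is not yet spliced, from an excised intron or from an intron that the transcript retains. For muscleblind proteins, binding upstream of a cassette exon is generally known to go with skipping of that exon and binding downstream with its inclusion.

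The CLIP libraries numbered 3 and came from hippocampus of wild-type female mice, labelled 3 months and also 11 to 12 weeks, of mixed C57BL/6 and 129 SvlmJ background, although the description of the series as a whole names BL6. Whether a library is 1 animal is not stated, so the spread between libraries may be partly technical. No CLIP library of a knockout or of input RNA was analysed here, so tags from binding by Mbnl2 and tags from other sources cannot be told apart. Changed exons came from RNA sequencing of hippocampus of 3 wild-type and 3 homozygous Mbnl2 ΔE2 female mice (2 to 3 months, the same mixed background) and from an array. The exon values are the authors' comparison of the genotypes, with no value per animal, and which direction is loss of inclusion was read from sequencing depth alone. Reads of 2 Mbnl2 events went against that reading, with 403 in the condition read as wild type and 722 in that read as knockout, and the deleted part of the gene was not analysed here.

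The CLIP libraries held 159144, 209430 and 334857 unique tags (libraries 1, 2 and 3), each 18 to 39 nt long. They were not fully separate. Each tag carries a 4-letter barcode, and 64 different barcodes occurred. Among pairs of tags from 2 libraries with the same ends and strand, many also had the same barcode. The share was 19.7% of such pairs for libraries 1 and 2, 36.3% for 1 and 3, and 56.5% for 2 and 3. The barcode frequencies alone give 2.22%, 2.22% and 2.24%. Such shared tags made up 12.3%, 19.8% and 14.3% of the tags of libraries 1, 2 and 3. Over all tags the median number of copies was 26, 11 and 1 in libraries 1, 2 and 3, so a single copy was usual in library 3. Between 85.5% and 88% of the shared tags of a pair of libraries had a single copy in one of the libraries. For libraries 1 and 2, the pair without library 3, the share was 87.5%. The 703431 tags thus came to 648110 distinct tags, a distinct tag being one combination of position, ends, strand and barcode. Results that rest on the number of libraries are given below with shared tags kept and with each counted once, in the library with most copies. Among the marker genes of cell types, all 6 neuron genes, 3 of 5 hippocampus, 3 of 5 oligodendrocyte, 4 of 5 astrocyte, 2 of 4 endothelium, 2 of 3 choroid plexus and none of the 5 microglia genes carried a peak of some class. An intron peak was found in 1 gene each of the neuron, hippocampus, oligodendrocyte and astrocyte lists and in none of the others. All peaks of the choroid plexus genes together had 157, 1036 and 287 counts per 1000000 unique tags, highest in library 2, and the part of such RNA in the intron peaks was not tested. The hippocampus markers Neurod6 and Neurod2 had no peak.

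Intron peaks took a small and even share of the tags. They held 3794, 4868 and 7900 tags in libraries 1, 2 and 3, which is 2.38%, 2.32% and 2.36% of all tags (mean 2.36% ± 0.0299, SD, n = 3 libraries). The 3′UTR peaks held 12%, 12.3% and 10.7%, so every library had several times more tags in 3′UTR peaks than in intron peaks. The difference was -9.31 percentage points ± 0.836 (SD, n = 3), with an exact two-sided paired permutation p of 0.25, the smallest that 3 libraries allow. With shared tags counted once the mean share in intron peaks was 2.17%, and with shared tags left out 1.91%.

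The tags in intron peaks were shared between libraries more often than those in other peaks. Shared tags made up 26.9%, 39.7% and 27.8% of the intron-peak tags of libraries 1, 2 and 3, against 14%, 21.4% and 17.3% of the 3′UTR-peak tags and 15.7%, 24.9% and 19% of the coding-peak tags. All 3 libraries were higher in intron peaks. The excess over 3′UTR peaks was 13.9 percentage points ± 4.02 (SD, n = 3), with an exact two-sided paired permutation p of 0.25, the smallest possible. Peaks were called on the pooled libraries, where a shared tag counts in each library that holds it, so sharing itself adds to height. The 488 intron peaks of 1 distinct tag described below hold shared tags alone. The classes were not compared at equal height, so this excess cannot be separated from how low peaks were called.

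Intron peaks were low and wide. Peak height is the authors' value, the largest number of overlapping tags of the 3 libraries together, and counting tags again gave the deposited height for all 10407 peaks. The median height of intron peaks was 4 (quartiles 3 and 5, range 2 to 170), against 9 in 3′UTRs and 6 in coding sequence. Their median width was 20 nt, against 7 and 11 nt. Width differed with the number of tags, with a median of 36 nt in intron peaks of 1 distinct tag and 17 nt in the others. The classes were not compared in width at equal height. Only 202 intron peaks (5.71%) reached a height of 10 and 32 reached 20, whereas 44.7% of 3′UTR peaks reached 10. Heights of 2 were almost absent elsewhere: 603 intron peaks (17.0%) had this height, compared with 2 peaks in 3′UTRs and 0 in coding sequence. The height that the authors expected by chance, given with each peak, had a median of 0.04 for intron peaks and 0.41 for 3′UTR peaks, and at a height of 2 it was at most 0.01. The sources used here do not give how that expected height was computed.

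**Figure D1:**
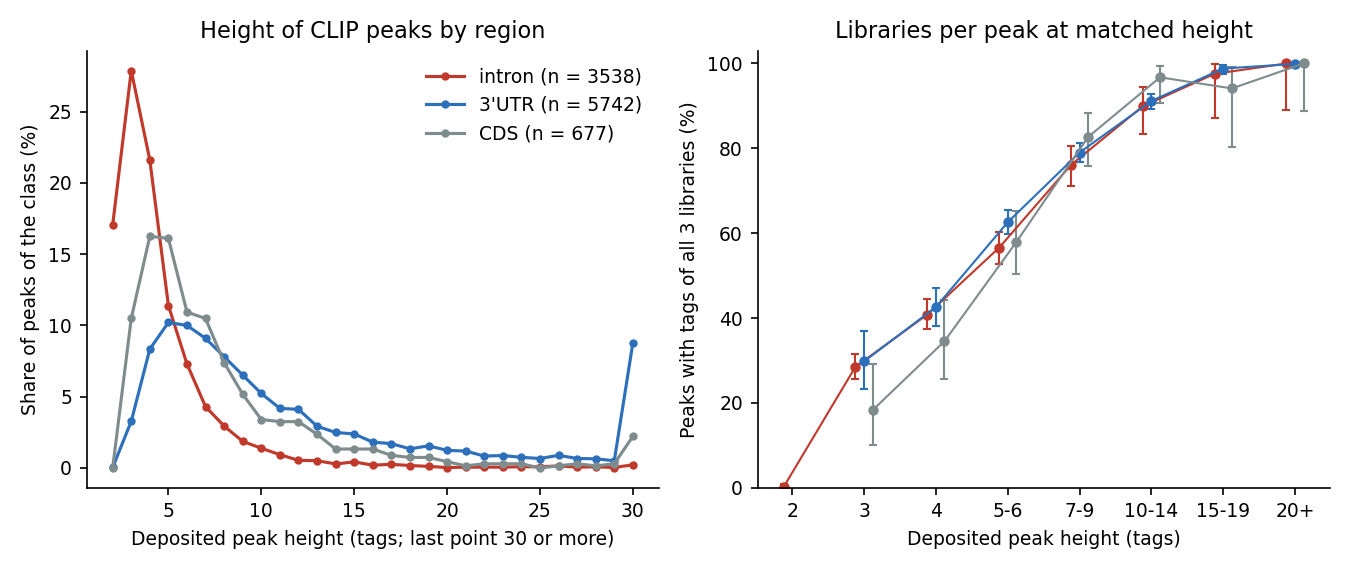
Left, the share of peaks (%) at each deposited height (tags) for the 3 classes, with 30 standing for 30 or more. Right, the share of peaks (%) with tags of all 3 libraries in bins of equal height that hold 20 or more peaks, with 95% exact Clopper-Pearson intervals. Intron peaks crowd at heights of 2 to 4, and at matched height, with shared tags kept in every library, their share with all 3 libraries lies close to that of 3′UTR peaks.

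Fewer intron peaks than other peaks had tags of every library. Tags of all 3 libraries were present in 1401 intron peaks, 39.6% (95% exact Clopper-Pearson interval 38 to 41.2%), against 78.6% of 3′UTR peaks and a background of 64.2% over peaks of every class. At equal height, with shared tags kept, the shares were nearer to each other: 28.5% of intron and 29.8% of 3′UTR peaks at height 3, 56.6% and 62.6% at heights 5 to 6, 89.9% and 91.2% at heights 10 to 14, and 32 of 32 intron peaks at 20 or more. With shared tags counted once, 891 intron peaks (25.2%) and 72.8% of 3′UTR peaks had tags of all 3 libraries. At equal deposited height the share of intron peaks was then below that of 3′UTR peaks in each bin from 3 up. It was 6.29% and 7.98% at height 3, 19.5% and 28.2% at height 4, and 43.0% and 50.9% at heights 5 to 6. At heights 7 to 9 it was 65.8% and 74.1%, and at heights 10 to 14 87.6% and 89.3%. Deposited height counts a shared tag in each library, and intron-peak tags were shared more often. The bins thus do not match the classes in distinct tags, and this difference cannot be separated from the sharing. Peaks with tags of 1 library alone numbered 378 (10.7%) with shared tags kept and 1221 (34.5%) with each counted once. These intervals hold the error of counting alone, because copies made by amplification are not separate molecules.

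A group of 488 intron peaks consisted of 1 distinct tag each. Their 2 or 3 tags had the same ends, strand and barcode and stood in different libraries. They made up 13.8% of intron peaks (95% exact interval 12.7 to 15%), against 15 peaks (0.261%) in 3′UTRs, 5 (0.739%) in coding sequence and a background of 4.91% over all peaks. Of the 603 intron peaks of height 2, 357 (59.2%) were of this kind, as were 131 of the 986 of height 3 (13.3%), and none of height 4 or more was. At height 3 the 3′UTR share was 7.45% (interval 4.13 to 12.2%), and the intron interval of 11.2 to 15.6% overlaps it. Libraries 2 and 3 shared the tag in 244 of the 488 peaks, all 3 libraries in 131, libraries 1 and 3 in 84, and libraries 1 and 2 in 29. A single copy was the median over all tags of library 3, so a single copy there does not set these peaks apart. In 457 of the 488 peaks the library with fewest copies had a single copy, while the library with most had a median of 61. They lay in 283 genes, and 29.9% were in annotated repeats, close to the 29.4% of the other 3050 intron peaks. Without library 2 the share of intron peaks made of 1 distinct tag was 8.84%, and without library 3 it was 9.26%.

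**Figure D2:**
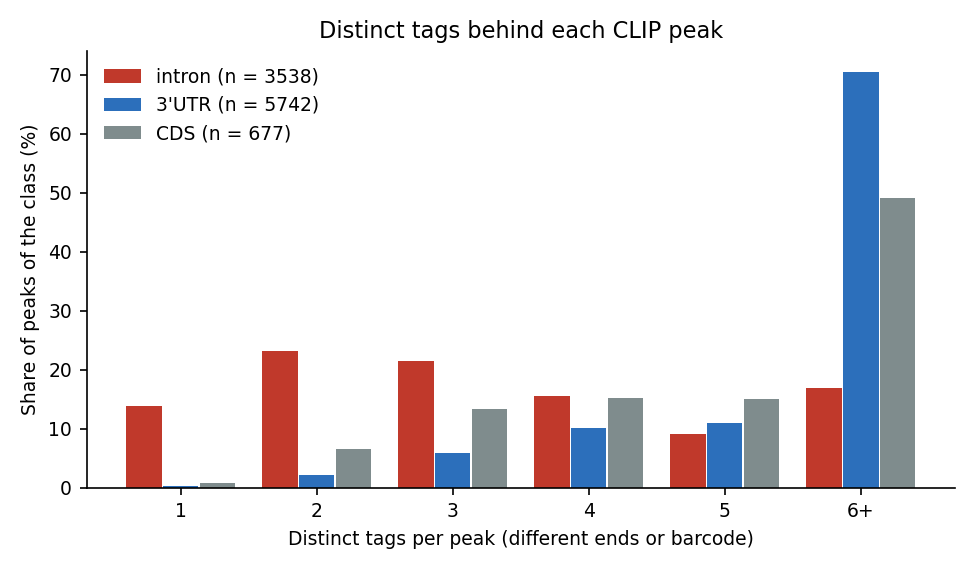
Share of peaks (%) of each class by the number of distinct tags in the peak, tags of equal ends, strand and barcode being counted once over the libraries; 6+ stands for 6 or more. Single-tag peaks are 13.8% of intron peaks and under 1% of 3′UTR and coding peaks, and 70.5% of 3′UTR peaks hold 6 or more distinct tags against 16.9% of intron peaks.

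Repeats were more common in intron peaks than in the other classes. The authors' annotation placed 1043 of them (29.5%, 95% exact interval 28 to 31%) in a repeat, against 3.64% of 3′UTR peaks, 2.36% of coding peaks and 12.4% of peaks of every class, and 777 of the 1043 lay in the repeat over their whole length. The share tended to be lower at greater heights, though not in every bin. It was 34.8% at height 2, 27.6% at 3, 32.7% at 4, 27.7% at 5 to 6 and 24.5% at 7 to 9. At 10 to 14 it was 24.0%, at 15 to 19 22%, and at 20 or more, with 32 peaks, 28.1%. In each height bin from 3 up it exceeded the 3′UTR share. The share of all intron sequence that lies in repeats was not measured here. Long interspersed elements (LINE) held 341 peaks, short interspersed elements (SINE) 247, simple repeats 190, long terminal repeat elements (LTR) 173, DNA transposons 39 and low-complexity sequence 33. Simple repeats had few peaks of 1 distinct tag (10 of 190), DNA transposons many (13 of 39).

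The 12 intron peaks in ribosomal RNA repeats stood apart from the other repeat classes. All 12 had tags of every library and their median height was 11.5. Together they held 804, 592 and 254 counts per 1000000 unique tags (CPM) in libraries 1, 2 and 3, with library 1 highest and library 3 lowest. The LINE peaks had nearly equal levels, 2074, 1962 and 2070 CPM. The tallest intron peak of all is one of the ribosomal kind, in an intron of Cdk8, the kinase of the Mediator complex (chromosome 5, 147072605, mm9, height 170). It held 73, 60 and 37 tags, which is 459, 286 and 110 CPM, with library 1 again highest and library 3 lowest. Reads from such a repeat have many near-identical copies in the genome, so their position is uncertain. The next in repeats were a ribosomal repeat in 2610528E23Rik (height 50; 21, 18 and 11 tags), a LINE in Kcnj6, a potassium channel gene (height 42; 11, 10 and 21 tags), and a SINE in A2bp1, the splicing regulator now called Rbfox1 (height 28; 7, 12 and 9 tags). A ribosomal repeat in the kinase gene Camk1d had the same height of 28 (7, 14 and 7 tags).

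Outside repeats, the 12 highest intron peaks had heights of 26 to 82, and all 12 had tags of every library. The highest was in Usp3, a deubiquitinating enzyme (chromosome 9, 66417075 to 66417087, mm9), with 11, 5 and 66 tags in libraries 1, 2 and 3, or 69.1, 23.9 and 197 CPM. Its library 3 level was well above both others. Fzd3, a Wnt receptor needed for axon guidance, followed with 15, 8 and 37 tags (94.3, 38.2 and 110 CPM), with library 2 lowest. Kif16b, an endosomal kinesin, had 6, 4 and 24 tags (37.7, 19.1 and 71.7 CPM), library 3 being highest once more. Gria2, an AMPA-type glutamate receptor subunit, had 12, 9 and 12 tags, or 75.4, 43.0 and 35.8 CPM, with library 1 highest. The peaks in Pcdh9, a protocadherin, were a pair of equal height, 26, and the more even of them had 37.7, 33.4 and 38.8 CPM, with no library standing apart. In 7 of the 12 peaks library 3 had the highest level, in 4 library 1 and in 1 library 2.

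These peaks differed in the number of reads behind each tag. The 33 tags of Gria2 came from 3969 reads and the 26 of Cttnbp2, a cortactin-binding protein of dendritic spines, from 5415, or 120 and 208 reads per tag. By contrast the 26 tags of Pop5, a subunit of ribonuclease P, came from 26 reads, the 29 of Opcml, a cell adhesion molecule, from 45, and the 34 of Kif16b from 55. Over the 23 intron peaks of height 20 or more outside repeats, 4 had at most 2 reads per tag and 14 had at least 50. The Usp3 tags started at 8 positions, those of Opcml and Pop5 at 5, and those of Gria2 at 14. Just below the 12 came Rasgrf1 (height 26), Paqr8 (25, with 4, 1 and 20 tags from 27 reads) and Zbtb20 (25).

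**Figure D3:**
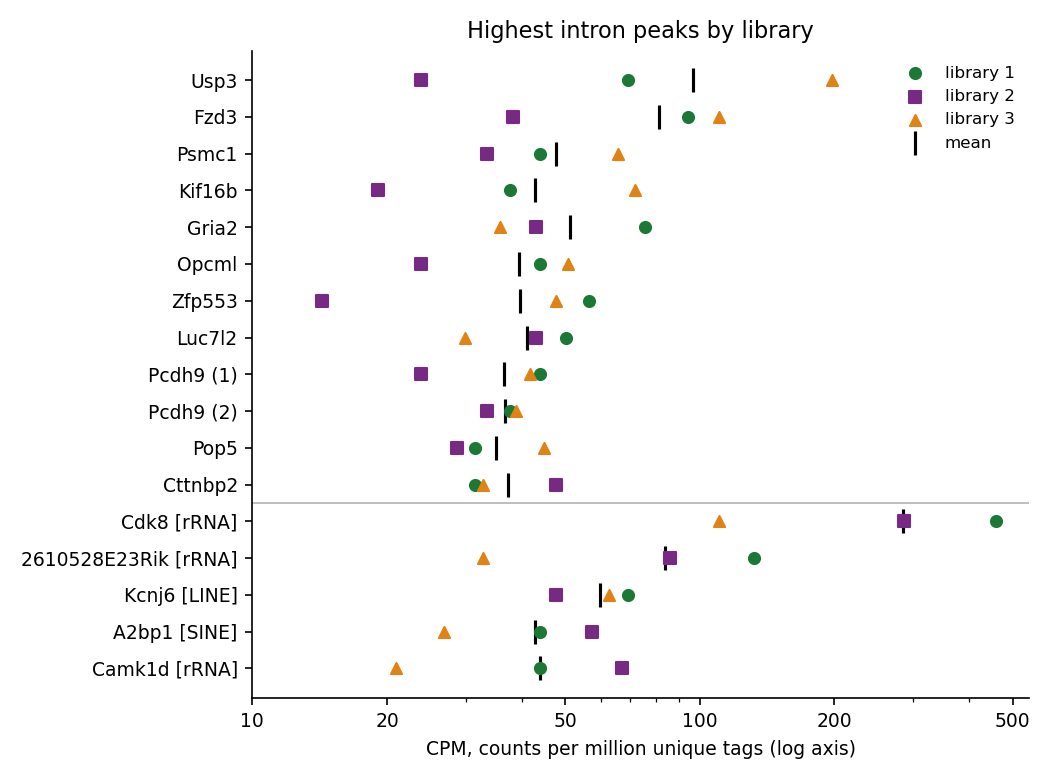
Counts per 1000000 unique tags (CPM, log axis) in each of the 3 libraries for the 12 highest intron peaks outside repeats (upper part) and the 5 highest in repeats (lower part, class in brackets), with the mean as a bar. Usp3 and Kif16b are highest in library 3, and the 3 ribosomal repeat peaks are lowest there.

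Many genes with an intron peak carried 1 such peak, and many had no peak of another class. Intron peaks occurred in 1679 of the 4804 genes with any peak, which is 35.0%. Of these genes 1061 (63.2%) had 1 intron peak, 138 had 5 or more, and 35 had 10 or more and together held 603 peaks (17.0%). No peak of another class was found in 1184 of the 1679 genes (70.5%), 741 (44.1%) had 1 intron peak and nothing else, and 23.3% also had a 3′UTR peak. Neighbouring intron peaks of a gene lay a median of 13494 nt apart, and 170 of 1859 gaps (9.14%) were at most 200 nt. Only 26 intron peaks (0.735%) were within 1000 nt of a 3′UTR peak of the same gene.

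The gene with most intron peaks was Lingo2, which encodes a leucine-rich repeat membrane protein. Its 80 peaks spread over 1223 kb of chromosome 4, with 41, 59 and 98 tags in libraries 1, 2 and 3, or 258, 282 and 293 CPM (277 ± 17.9, SD, n = 3). The 3 libraries were near each other. The peaks were low, with a median height of 2 and a highest of 8, and 36 of the 80 consisted of 1 distinct tag, which leaves 44 and still the first place. Lrp1b, a lipoprotein receptor-related protein, had 27 intron peaks, Nrg3, a neuregulin, 26, Kcnip4, a subunit of A-type potassium channels, 22, and Csmd1, a complement-regulating membrane protein, 22. None of these genes had a peak of another class, and together they had 1 peak of a single distinct tag. Purg, a purine-rich element-binding protein, differed in density, with 26 peaks within 26.9 kb. Its levels were 182, 177 and 173 CPM, nearly equal in the 3 libraries. Zbtb20, a transcription repressor that specifies hippocampal pyramidal neurons, had 18 intron peaks of median height 6 and 214, 205 and 215 CPM, again even. Cdkal1, a tRNA-modifying enzyme, and 2210408I21Rik, with 21 and 19 peaks, had 9 and 8 of a single distinct tag. Zfp553 had 19 peaks, the highest of 28. The height expected by chance also differed, being 0.01 for the highest Lingo2 peak and 0.48 for the highest Pcdh9 peaks. It was at most 0.01 at intron peaks of height 2 and at most 0.09 at those of height 3. Genes of low expected height thus had peaks called at fewer tags, and numbers of peaks per gene are not on 1 scale. Gene length and the abundance of the transcript were not measured here, so a long gene and a strongly bound one cannot be told apart.

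**Figure D4:**
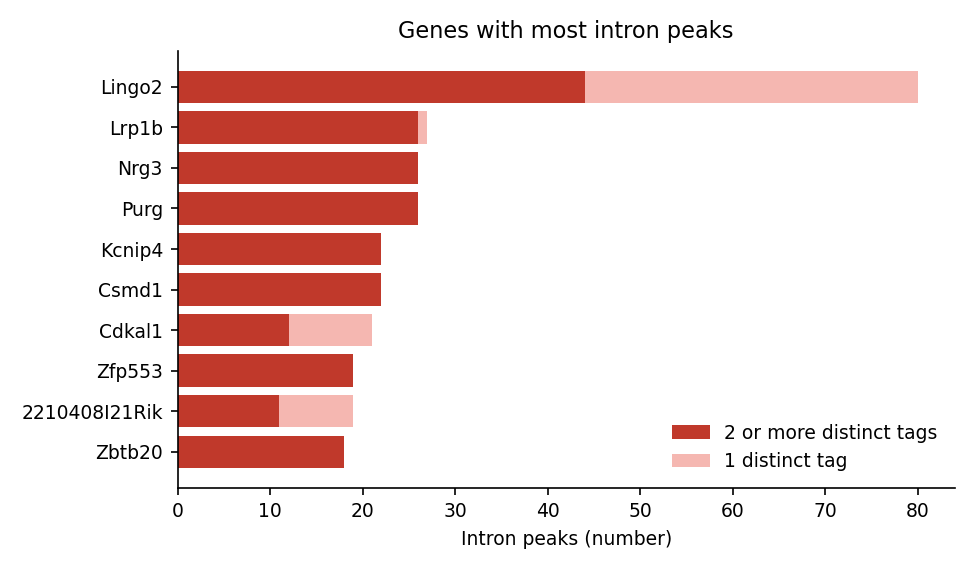
Number of intron peaks in the 10 genes with most of them, split into peaks with 2 or more distinct tags and peaks of 1 distinct tag. Lingo2 leads with 80, of which 36 rest on 1 distinct tag, while Nrg3, Purg, Kcnip4, Csmd1, Zfp553 and Zbtb20 have none of that kind.

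Among groups of neuronal genes with any peak, those for adhesion molecules and ion channels most often had at least 1 intron peak. All the lists given here were above the share over all genes with a peak. Of 45 cell adhesion genes with any peak, 39 (86.7%) had an intron peak, against 35.0% over all genes with a peak. They were led by Csmd1 (22 peaks), Opcml (14), the postsynaptic adhesion protein Nlgn1 (14) and Pcdh9 (13). Of the 185 intron peaks of the adhesion genes, 16 consisted of 1 distinct tag. Of 32 ion channel genes 22 (68.8%) had one, led by Kcnip4, Kcnj6 (16 peaks, of which 15 in repeats), the N-type calcium channel subunit Cacna1b (9) and the A-type potassium channel Kcnd2 (7). Neurotransmitter receptors followed with 17 of 30 (56.7%), led by the NMDA receptor subunit Grin2a (9) and the metabotropic receptor Grm7 (7). Transcription regulators had 14 of 27 (51.9%), with Zbtb20 and the orphan nuclear receptor Rora (9), and synaptic scaffold and vesicle genes 22 of 44 (50%), with Nrg3, Dab1 (13), an adaptor of reelin signalling, and Magi2 (12), a scaffold protein. Nearer to the background were cytoskeleton genes (21 of 47, 44.7%, led by Nav3 with 7 and Ank3 with 6), kinases, phosphatases and GTPase regulators (19 of 43, 44.2%, led by the diacylglycerol kinases Dgki and Dgkh with 7 each) and splicing and RNA-binding genes (16 of 40, 40%). In the last list the leading genes were Khdrbs3 (6) and Khdrbs2 (5), RNA-binding proteins of the STAR family, then A2bp1 and Cugbp2, now called Celf2, with 3 each. The level over the libraries was most even in the intron peaks of ion channel genes (886, 888 and 923 CPM) and of synaptic genes (930, 950 and 962 CPM). It was less even for adhesion genes (1640, 1385 and 1565 CPM), kinases (452, 353 and 400 CPM), cytoskeleton genes (427, 344 and 364 CPM) and splicing genes (276, 372 and 364 CPM), of which library 1 was highest in the first 3 lists and lowest in the last. The lists were chosen with earlier results of these data known, and no test was made over them.

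Few intron peaks lay close to a cassette exon that changed in the knockout. The authors' joint table of RNA-seq and array lists 290 such exons in 257 genes. Under the reading of direction by depth, 147 were less and 143 more included in the knockout, and the directions below all rest on that reading. Within 1000 nt of an exon edge lay 25 intron peaks (0.707% of 3538), and 25 exons (8.62% of 290) had such a peak. Among the 209 exons called by RNA-seq the share was 9.09%. Exons that did not change were not examined here, so these shares and the distances below have no background to be set against. None of the 25 peaks was in a repeat, 1 consisted of 1 distinct tag, their median height was 6 (range 3 to 11), and 14 (56%) had tags of all 3 libraries. Over the whole intron between the flanking constitutive exons, 43 of the 290 exons (14.8%) had an intron peak, 21 of 147 less included (14.3%) and 22 of 143 more included ones (15.4%). Just outside the 1000 nt limit came peaks at 1017 nt from an exon of Sgip1, 1060 nt in Bin1 and 1087 nt in Ppil2.

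Peaks upstream of exons that were more included in the knockout formed the most compact group. They made 11 pairs of peak and exon, at a median of 53 nt from the exon, and 10 of the 11 lay within 150 nt. The nearest was 11 nt upstream of the 171 nt exon of Ppp1r12a, the targeting subunit of myosin phosphatase, with 2, 0 and 2 tags in libraries 1, 2 and 3. Inclusion of this exon changed by 0.358 (FDR 0.000101) in the authors' deposited table. Tom1l2, an endosomal sorting protein, had 2, 2 and 3 tags at 25 nt, and its 60 nt exon changed by 0.175 (FDR 0.00125) in the authors' deposited table. Agrn, the proteoglycan agrin, had 1, 2 and 2 tags at 37 nt, and its 33 nt exon changed by 0.148 (FDR 0.0429) in the authors' deposited table. All 3 libraries contributed in Tom1l2 and Agrn, and library 2 had no tag in Ppp1r12a.

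In the same group were Cadps, which primes dense-core vesicles, Ank3, the ankyrin of the axon initial segment, and Kif1a, an axonal kinesin. The 147 nt exon of Cadps had a pair of peaks at 50 and 136 nt, with 0, 5 and 3 tags and 2, 0 and 5 tags, so that neither peak had tags of every library but the pair together did. A 33 nt exon of Ank3 had a peak at 50 nt with 2 tags in each library, and a 27 nt exon of the same gene, called by the array alone, one at 128 nt with 1, 2 and 4 tags. Kif1a had 2, 1 and 4 tags at 75 nt from its 27 nt exon, whose change was 0.148 with an FDR of 9.29e-16 in the authors' deposited table. Bin1, a membrane-curving protein of endocytosis, had 1, 0 and 3 tags at 53 nt from a 129 nt exon. The one distant peak of the group, at 943 nt in the microtubule-anchoring gene Phldb1, had 1, 2 and 3 tags.

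Mbnl2 itself belonged to this group. Its only intron peak (chromosome 14, 120803726 to 120803736, mm9, height 7) lay 124 nt upstream of the 95 nt cassette exon at 120803860 to 120803954. It had 3, 0 and 4 tags, or 18.9, 0 and 11.9 CPM, so library 2 had none. In the authors' deposited table the exon was called by RNA-seq and by the array, with a change of 0.222 (FDR 1.92e-10). The change reads as more inclusion in the knockout only under the reading of direction by depth, against which the 2 Mbnl2 events named above went, and under the opposite reading it is less inclusion. Mbnl1, the paralogue, had no intron peak.

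Downstream of more included exons there were 6 pairs, at a median of 218 nt. Of these 2 are overlapping exons of 37 and 34 nt in Add1, a spectrin-binding adducin, which share 1 peak at 49 nt with 3, 2 and 5 tags. In Arpp21, an RNA-binding phosphoprotein of neurons, a peak of 1, 2 and 6 tags lay at 398 nt from an exon called by the array alone. The others, Nrbp1, Rims1 and Ep400, which are named here with their values already seen, had peaks of height 4 or 5 at 152, 615 and 283 nt.

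Near exons that were less included in the knockout, intron peaks within 1000 nt numbered 9 pairs, and the upstream ones lay at a median of 770 nt. Downstream there were 5 pairs at a median of 99 nt, 3 of them within 150 nt. The highest was in Picalm, a clathrin assembly protein, 66 nt from a 24 nt exon, with 1, 4 and 6 tags (6.28, 19.1 and 17.9 CPM), library 1 being lowest. That exon changed by 0.144 (FDR 0.00559) in the authors' deposited table. Dst, a cytoskeletal linker named here with its values already seen, had peaks at 66 and 99 nt downstream of exons of 18 and 72 nt, which changed by 0.227 and 0.281 in the authors' deposited table. The glutamate receptor gene Grm5 had 1, 3 and 4 tags at 228 nt from an exon called by the array alone. Upstream there were 4 pairs at 337 to 890 nt and none within 150 nt. They were in Mark2, a microtubule-affinity kinase (730 nt; 2, 0 and 6 tags), Epn2, an endocytic epsin (810 nt; 0, 0 and 4 tags), Depdc5 (890 nt; 1 tag in each library, all 3 the same distinct tag) and Slain2 (337 nt).

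**Figure D5:**
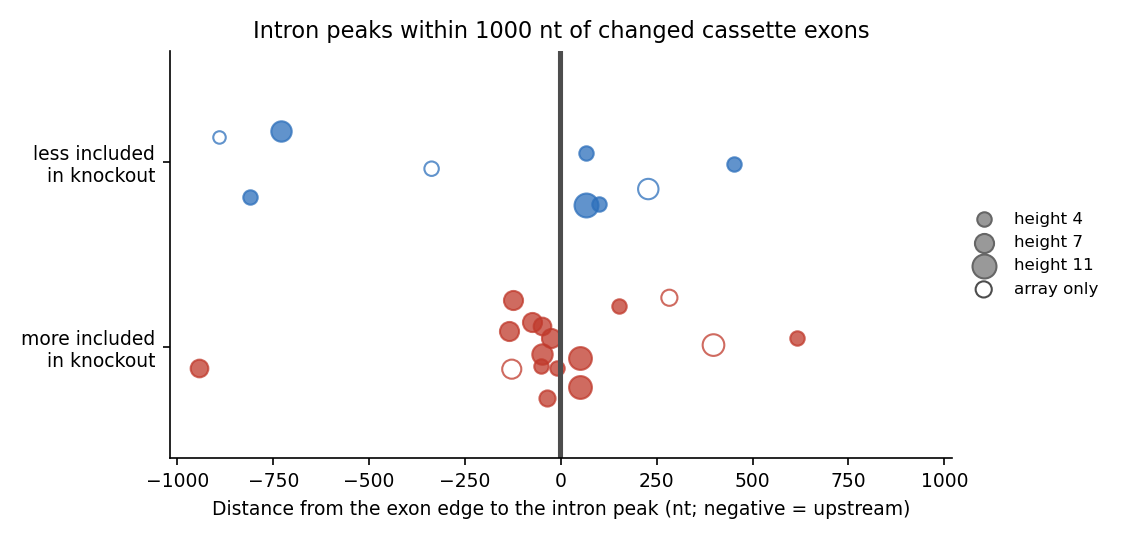
Distance (nt) from the exon edge to each intron peak within 1000 nt of a changed cassette exon, upstream as negative, for exons less and more included in the knockout. Point area is proportional to peak height, open points are exons called by the array alone, and the vertical scatter within a row only separates points; 10 of the 11 upstream pairs of more included exons lie within 150 nt.

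The side of the peak was compared with the direction of the change over exons called by RNA-seq that had an intron peak on 1 side only. Within 1000 nt, less included exons had their peak downstream in 4 cases and upstream in 2, and more included exons downstream in 4 and upstream in 9. The log2 odds ratio was 1.93 (0.5 added to each count), and a two-sided Fisher's exact test gave p = 0.319, which is not past 0.05. Within 500 nt the counts were 4 and 0 against 3 and 8, with p = 0.0256 in the same exact test, and within 250 nt 3 and 0 against 3 and 8, with p = 0.0549. With the overlapping Add1 exons counted once, p was 0.141 in that test at 1000 nt. Within 500 nt, 2 of the 4 less included exons with a downstream peak were in Dst. The overlapping Add1 exons made 2 of the 3 more included ones with a downstream peak. Exons of 1 gene are not independent, and p with each gene counted once was not computed within 250 or 500 nt. With the exons called by the array alone added, the counts within 250 nt were 4 and 0 against 3 and 9 (p = 0.0192, the same exact test), within 500 nt 5 and 1 against 5 and 9 (p = 0.141) and within 1000 nt 5 and 4 against 6 and 10 (p = 0.434). The distance at which p was under 0.05 thus differed between the 2 sets of exons. None of these p values was corrected for the number of distances and sets tried.

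The tags of each library were also compared. Over the exons called by RNA-seq, within 1000 nt of less included exons, libraries 1, 2 and 3 had 2, 8 and 13 tags in downstream intron peaks and 2, 0 and 10 in upstream ones. Near more included exons of that set they had 4, 3 and 11 downstream and 16, 14 and 31 upstream, so upstream exceeded downstream in every library. The log2 ratio of downstream to upstream tags, with 1 added to each, was higher for less than for more included exons by 1.77, 5.08 and 1.76 (mean 2.87 ± 1.91, SD, n = 3; exact two-sided paired permutation p = 0.25, the smallest possible). All 3 libraries gave the same direction, and without library 2 the mean was 1.76. Tags were counted only in peaks called on the pooled libraries, near the same few exons as above. Some tags are also shared between libraries, so the common direction is not independent evidence from each library. Counting shared tags once gave a mean of 2.51.

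Genes with a changed exon held 206 intron peaks (5.82%, 95% exact interval 5.07 to 6.65%), against 5.49% of 3′UTR peaks and 5.52% of peaks of every class. Among higher peaks the share was larger: they held 10.1% of the intron peaks of height 5 or more, against 5.85% of such 3′UTR peaks and 6.51% of such peaks of every class. At a height of 10 or more the shares were 10.4%, 5.14% and 5.53%. Counted by gene, 5.42% of the genes with an intron peak had a changed exon (interval 4.39 to 6.61%), against 3.98% of those with a 3′UTR peak (interval 3.31 to 4.74%). Of the 257 genes with a changed exon, 182 had some peak and 91 had an intron peak. That is 50% of the 182, beside 35.0% over all genes with a peak. These shares are a description, not matched for gene length or transcript abundance, neither of which was measured here. A link between intron peaks and changed exons beyond those factors was thus not tested. The interval over peaks also treats peaks of the same gene as independent. Among the genes with a changed exon, Lrrfip1 and Enox1 had most intron peaks (8 each). Next came Phldb1, the presynaptic scaffold Rims1, Dgkh and the L-type calcium channel gene Cacna1d (7 each). The 7 peaks of Phldb1 had 9, 15 and 30 tags, and 6 of them had tags of all 3 libraries. The 7 of Cacna1d were at most 4 high and had 5, 3 and 15 tags, library 3 being highest, with 2 that had tags of all libraries. None of the Cacna1d peaks was within 1000 nt of its changed exons.

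Mutations that the authors list as crosslink sites, where reverse transcription can misread a crosslinked base, gave a second readout from the same tags. The authors list 557 such sites at an FDR of at most 0.001 and with at least 4 mutated tags. Of these, 21 lay within 50 nt of an intron peak, 16 of them inside it, at 15 peaks in 15 genes (0.424% of intron peaks). By the authors' own classes 41 of the 557 sites are in introns and 373 in 3′UTRs. A peak of height 2 or 3 has too few tags to hold such a site. Of the 3538 intron peaks 603 had a height of 2 and 986 of 3, against 2 and 188 of the 5742 3′UTR peaks. These site numbers therefore do not compare crosslinking between the classes. In the authors' deposited table the site in the ribosomal repeat of Cdk8 has 13 mutated of 143 tags, that in Paqr8, a membrane progestin receptor, 7 of 22, and that in Slc4a4, a sodium bicarbonate cotransporter, 6 of 18. An Ank3 site has 5 of 9 in the authors' deposited table, in a peak of 8 distinct tags. With the minimum of 4, a position covered by 4 tags can be listed only if all 4 are mutated. The number of sites with every tag mutated is thus partly fixed by that minimum. At 13 of the 21 sites, in 9 peaks, every tag was mutated. These include a site in Purg with 5 of 5 tags and 3 adjacent sites in Ablim1, an actin-binding protein, with 4 of 4 tags in the authors' deposited table, and the Ablim1 peak had 2 distinct tags. Whether sites with every tag mutated mark crosslinks, or differences of the mixed mouse background from the mm9 build, was not tested.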

How the data were processed

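CLIP tags of 3 wild-type hippocampus libraries were used with the authors' tables of peaks, changed exons and mutation sites (mouse build mm9). The submitters' processing notes name Novoalign and TopHat 1.3.2 without their roles, and they also list Bowtie, with a version number that fits no release and is not printed. Peaks were called on the pooled libraries at P below 0.01 after Bonferroni correction, and heights are counts of tags, per the file headers. The inclusion change of an exon is a fraction that the authors deposited with an FDR, without naming the test. The call and direction of each exon were deposited by the authors as scores of 1 or -1; the score column of the tag files, also deposited, was not used. Reads of conditions A and B and mutated tags per site are the authors' counts.

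A tag was assigned to a peak on its strand by any overlap of at least 1 nt. CPM are counts per 1000000 unique tags of a library. Distances run from the peak to the nearest exon edge. The genotype behind the sign of a change is named in no file. Reads of condition A exceeded those of B by a ratio of 1.44 over 151 events, and the ratio of junction fragments between the wild-type and knockout libraries was 1.42, so A was read as wild type and a positive change as less inclusion in the knockout. The events of Mbnl2 itself went against this, with 722 reads in B and 403 in A over 2 events. A wrong reading would turn every direction over.

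Named peaks follow a rule: the 12 highest outside repeats and 5 in repeats, peaks of Mbnl1 and Mbnl2, the 10 genes with most peaks, near exons the 12 highest and 6 nearest, the 3 on each side of a limit, and up to 4 genes per list. Members and lists were chosen with earlier results of these data known. Counting was tested on 500 simulated peaks, of which 100% were recovered. Alternatives changed the overlap rule, height, repeats, distance, exon set, libraries and shared tags. No mm9 sequence was used here. Tables were computed with pandas 2.3.3 and numpy 2.4.6 under Python 3.11.15, exact tests with scipy 1.17.1, and plots with matplotlib 3.10.9.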

Additional observations from a re-analysis of the deposited data

How the results depend on the processing

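The mean share of tags in intron peaks, 2.36%, was 1.43% when the tag centre had to lie in the peak, 1.67% without repeats, 1.32% and 0.464% for heights of at least 5 and 10, and 15.2% of peak tags; leaving out a library gave 2.34 to 2.37%. Intron peaks with tags of all 3 libraries, 39.6%, came to 21.9% by tag centre, 41.8% without repeats, and 68.1% and 93.1% for heights of at least 5 and 10. Peaks with tags of both remaining libraries were 43.2 to 70.6% when a library was left out. At heights of at least 5 and 10 the median height was 6 and 12.5, the share in repeats 26.2% and 24.3%, and the share in genes with a changed exon 10.1% and 10.4%. Peaks of 1 distinct tag were 0% at a height of at least 5, 16.0% by ends alone without the barcode, and 8.84 to 14.8% when a library was left out. The log2 odds of side by direction, 1.93, was 4.45 within 500 nt, past the threshold (exact p = 0.0256), and -0.74 for heights of at least 10 (exact p = 1), where 3 exons remain. There the difference per library turned to -0.0135; without a library it was 1.76 to 3.42. The cause of these changes was not tested, beyond fewer peaks at greater heights. Chosen after seeing the data, counting shared tags once or leaving them out gave 2.17% and 1.91% of tags and 25.2% and 19.9% of peaks with all 3 libraries. The other 35 values kept their direction and side of the threshold, or stayed within the spread. No paired analysis was possible because no result compares the genotypes sample by sample: the CLIP has 1 group and exon values are not given per animal. The permutations above pair values within a library. What the depth limits was not measured beyond the heights of the deposited peaks.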
